A study of Mus musculus with 36 samples.

Results

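The genes described here are 7 members of the mammalian circadian clock, namely Bmal1, Clock, Npas2, Nfil3, Cry1, Nr1d1 and Nr1d2, out of 78239 genes counted in every library. They were listed by symbol, as clock activators and morning-phase genes, and each symbol was matched to 1 Ensembl gene. The study sequenced polyadenylated RNA from the heart, the kidney and the liver of male wild-type C57BL/6NCrl animals aged 8, 10 or 12 weeks. Each of the 9 groups had 4 libraries, 36 together, and no group received a treatment. The mice were bought young, fed freely and kept under equal hours of light and dark, and tissues were taken after killing, which followed a blood draw under ketamine and xylazine. The hour and day at which each animal was sampled are not given in the sources used here. The libraries of each tissue carry a number, and the same 12 numbers occur in all 3 tissues. The labels do not say that libraries of 1 number came from the same mouse, so a library is named here by its age and replicate.

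The circadian clock is a feedback loop of transcription that runs in nearly every cell. BMAL1 pairs with CLOCK, or with its relative NPAS2, and the pair binds E-box sequences and activates genes that include Cry1 and Nr1d1. CRY1 protein represses the activator pair, NR1D1 and NR1D2 (REV-ERB alpha and beta) are nuclear receptors that repress Bmal1 through ROR elements, and NFIL3 is a bZIP repressor acting at D-box sequences. In peripheral tissues the transcripts of the loop rise and fall daily, Bmal1 and Nr1d1 at different hours.

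On GRCm39, with gene spans from the GENCODE annotation, the activators lie as follows, Bmal1 (ENSMUSG00000055116) at chr7:112806152-112914735 on the plus strand, Clock (ENSMUSG00000029238) at chr5:76342860-76452846 on the minus strand and Npas2 (ENSMUSG00000026077) at chr1:39232705-39402323 on the plus strand. The repressors are Nfil3 (ENSMUSG00000056749) at chr13:53121245-53137010 on the minus strand, Cry1 (ENSMUSG00000020038) at chr10:84967560-85021252 on the minus strand, Nr1d1 (ENSMUSG00000020889) at chr11:98658752-98666188 on the minus strand and Nr1d2 (ENSMUSG00000021775) at chr14:4230545-4266624 on the plus strand. All 7 are protein-coding genes.

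Promoter windows are shown for Bmal1, Cry1 and Nr1d1, the members that passed a test for differences between library numbers, described below. The calls of Bmal1 and Cry1 in that test were lost when some numbers were left out. The windows are from RefSeq on GRCm38.p6, another build than the GRCm39 of the counts, run 5′ to 3′ on the gene's strand and span 300 bases, mostly upstream of the annotated start. Capitals mark the E-box CACGTG and the ROR element core TNGGTCA, searched on both strands together with the D-box TTANGTAA. The motifs did not overlap one another.
Bmal1, chr7:113207261-113207560, plus strand, the second of 2 windows: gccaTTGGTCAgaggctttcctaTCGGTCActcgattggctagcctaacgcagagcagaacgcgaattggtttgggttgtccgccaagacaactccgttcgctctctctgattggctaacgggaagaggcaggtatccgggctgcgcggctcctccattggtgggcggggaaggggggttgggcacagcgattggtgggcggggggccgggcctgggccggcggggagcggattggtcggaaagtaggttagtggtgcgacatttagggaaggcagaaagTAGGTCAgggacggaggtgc
Cry1, chr10:85185005-85185304, minus strand: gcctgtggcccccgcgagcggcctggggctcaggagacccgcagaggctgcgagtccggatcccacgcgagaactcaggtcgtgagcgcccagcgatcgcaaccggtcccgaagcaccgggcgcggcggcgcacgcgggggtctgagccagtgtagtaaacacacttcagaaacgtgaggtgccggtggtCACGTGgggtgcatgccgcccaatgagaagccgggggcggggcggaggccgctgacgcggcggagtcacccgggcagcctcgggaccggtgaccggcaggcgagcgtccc
Nr1d1, chr11:98775328-98775627, minus strand: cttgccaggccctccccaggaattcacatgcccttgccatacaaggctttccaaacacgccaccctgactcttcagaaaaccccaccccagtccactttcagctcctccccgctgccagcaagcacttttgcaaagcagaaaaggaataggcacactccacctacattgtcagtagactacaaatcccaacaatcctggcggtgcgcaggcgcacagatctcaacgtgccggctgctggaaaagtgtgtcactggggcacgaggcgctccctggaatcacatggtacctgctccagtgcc

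The Bmal1 window shown, listed under the older symbol Arntl, held 3 ROR cores. The other Bmal1 window held 2, both also within the window shown. The Cry1 window held 1 E-box, and the Nr1d1 window held no match. Of the other members, the Nfil3 window held 1 ROR core and the windows of Clock, Npas2 and Nr1d2 held no match. Over 32851 RefSeq windows of the same length, 7.15% held the E-box, 10.96% the ROR core and 2.32% the D-box. Of 27025 genes, 8.09%, 12.45% and 2.72% held them in at least 1 window. A match is a description of the letters in the window.

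The counted read pairs numbered 21031599 to 33637390 per library. Markers were highest in the tissue of their label, with the summed level of 5 heart muscle genes at 39186 to 52746 CPM (counts scaled to a library total of 1000000) in heart and at most 5.17 CPM in kidney and 1.19 CPM in liver. The 6 liver genes summed to 80369 to 120596 CPM in liver. They also summed to 1719 to 2758 CPM in kidney, where Cyp2e1 alone reached 2594 CPM. Some kidney libraries held RNA of the brown fat markers Ucp1 and Cidea, up to 32.2 CPM in sum, and a 10-week heart library held liver markers at 24.7 CPM. Their part in the results below was not tested. In bulk tissue, fewer cells of a type and less RNA per cell cannot be told apart.

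Nr1d1 and Nr1d2 were the members with the most RNA for their length, and Bmal1 and Npas2 those with the least. As a level in CPM per kb of exon, Nr1d1 was at 24.5 ± 9.5 in heart, 17.7 ± 6.2 in kidney and 20.8 ± 12 in liver (SD, n = 12). Nr1d2 was at 20.1 ± 2.6 in heart, 21.7 ± 1.8 in kidney and 16.5 ± 2.5 in liver. In these unstranded counts the pair of receptors differed by less than the SD of Nr1d1 in each tissue. Pairs on the 52.8% of Nr1d1 exon bases that overlap another gene were left out, and Nr1d2 has no such overlap. The order and the distance of this pair are thus uncertain. Clock followed at 2.53 ± 0.60 in heart, 3.89 ± 0.43 in kidney and 2.55 ± 0.73 in liver. Cry1 was at 2.43 ± 0.48, 1.71 ± 0.90 and 2.22 ± 0.66 in the same order of tissues, within 1 SD of Clock in heart and liver. Nfil3 was at 0.706 ± 0.21, 0.518 ± 0.30 and 1.77 ± 0.68. Npas2 was at 0.333 ± 0.097, 0.248 ± 0.095 and 0.030 ± 0.028, and Bmal1 at 0.238 ± 0.22, 0.212 ± 0.19 and 0.227 ± 0.21. The Bmal1 and Npas2 levels lay within 1 SD of each other in heart and kidney.

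Counting was unstranded, and pairs that fell on exons of 2 genes were left out. For Nr1d1, 52.8% of its exon bases lie over those of another gene, 1694 of them on Thra, the thyroid hormone receptor alpha gene read from the opposite strand. The overlap was 12.6% for Clock, 12.7% for Npas2, 10.5% for Nfil3 and 3.06% for Bmal1, and Cry1 and Nr1d2 had none. Adding the counts of both single-strand columns moved the mean level of Nfil3 in liver from 8.74 to 16.0 CPM and that of Nr1d1 in heart from 79.4 to 105.0 CPM, so the levels per kb of these genes carry that uncertainty. Such reads cannot be assigned to one of 2 overlapping genes here.

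**Figure D1:**
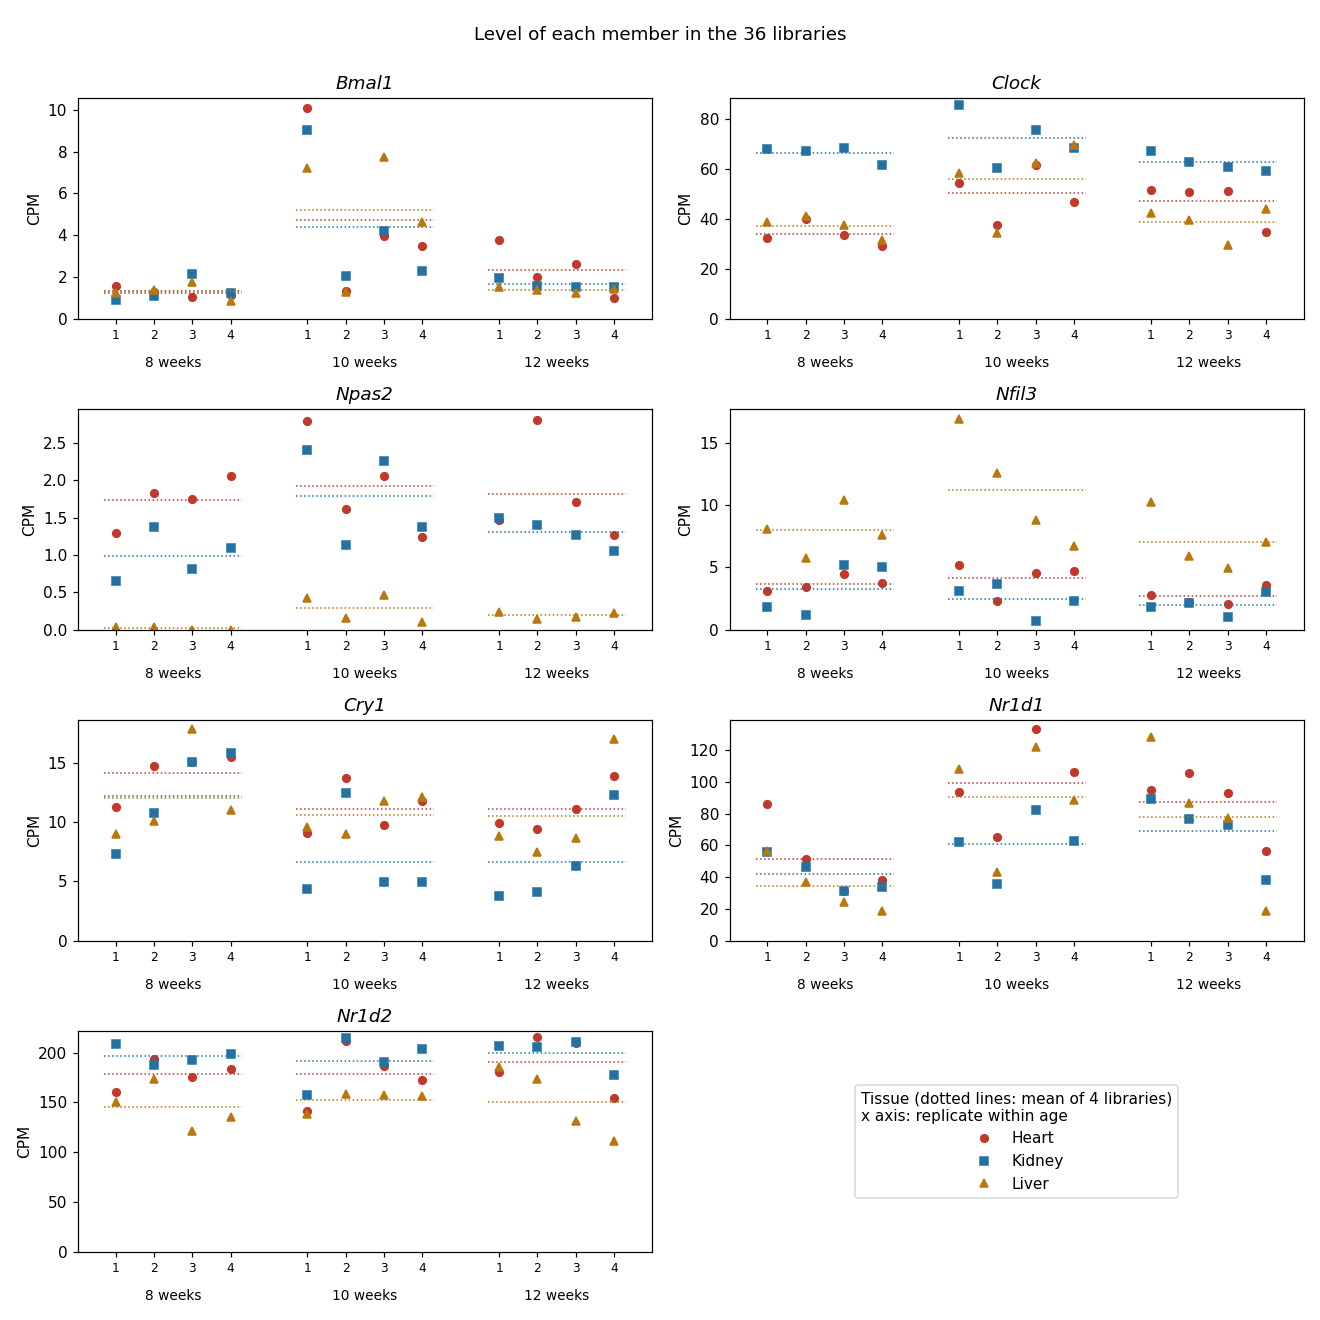
Level of the 7 members in CPM (y axis, from 0) in the 4 libraries of each age (x axis, replicate within age) in heart, kidney and liver. Each symbol is 1 library and the dotted lines are group means; Bmal1 stands highest at 10 weeks in replicate 1 of heart and kidney, and Nr1d1 is low in replicate 2 at 10 weeks and replicate 4 at 12 weeks in all 3 tissues.

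Bmal1, whose protein pairs with CLOCK or NPAS2, varied 9.23-fold to 10.4-fold among libraries of 1 tissue. In heart it was at 1.54, 1.25, 1.03 and 1.13 CPM at 8 weeks, at 10.1, 1.33, 3.95 and 3.47 CPM at 10 weeks, and at 3.75, 1.99, 2.62 and 0.967 CPM at 12 weeks. In kidney it was at 0.891, 1.09, 2.15 and 1.22 CPM at 8 weeks, at 9.04, 2.03, 4.19 and 2.26 CPM at 10 weeks, and at 1.93, 1.56, 1.52 and 1.54 CPM at 12 weeks. In liver it was at 1.22, 1.38, 1.76 and 0.840 CPM at 8 weeks, at 7.20, 1.28, 7.75 and 4.63 CPM at 10 weeks, and at 1.52, 1.36, 1.22 and 1.41 CPM at 12 weeks. In all 3 tissues 3 of the 4 libraries at 10 weeks were above every library at 8 weeks, and replicate 2 lay among them. These levels rest on 19 to 275 read pairs per library.

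The mean Bmal1 level at 10 weeks was 4.71 ± 3.8 CPM in the heart, 4.38 ± 3.3 CPM in kidney and 5.21 ± 3.0 CPM in liver (SD, n = 4), against 1.24 ± 0.22, 1.34 ± 0.56 and 1.30 ± 0.38 CPM at 8 weeks. From 8 to 10 weeks the log2 fold change came to 1.95 ± 0.48 (SE) for heart, 1.63 ± 0.42 for kidney and 1.93 ± 0.42 for liver. In edgeR's quasi-likelihood test the Benjamini-Hochberg adjusted p over all genes was 0.0586, 0.0741 and 0.118, so none passed 0.05. DESeq2 gave an adjusted p of 0.0421, 0.00352 and 0.00134 for the same changes. With limma-voom the log2 fold changes were 1.63, 1.41 and 1.61, and the adjusted p was 0.168, 0.130 and 0.235. Without replicate 2 at 10 weeks the edgeR adjusted p fell to 0.00552 for heart, 0.0369 for kidney and 0.00319 for liver. It was also under 0.05 for heart without replicate 4 at 12 weeks (0.0463) and for kidney without replicate 4 at 10 weeks (0.0412). Other libraries moved it the other way, up to 0.170, 0.195 and 0.266. Without replicate 1 at 10 weeks, the highest library in heart and kidney, the log2 fold change was 1.21 for heart and 1.03 for kidney.

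From 10 to 12 weeks the log2 fold change of Bmal1 came to -1.09 ± 0.44 for heart, -1.36 ± 0.41 for kidney and -1.82 ± 0.41 for liver, with edgeR adjusted p of 0.342, 0.120 and 0.0781. Without replicate 1 at 10 weeks the log2 fold change was -0.34 for heart (0.83) and -0.75 for kidney (0.311). The liver adjusted p was 0.00491 without replicate 2 at 10 weeks and up to 0.210 without another library. In kidney the groups did not overlap, as for 5.96% of all genes in that direction, and in heart and liver they did. From 8 to 12 weeks the log2 fold change came to 0.87 ± 0.50 for heart, 0.28 ± 0.44 for kidney and 0.12 ± 0.43 for liver, and adjusted p was 0.304 or more.

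Over all 7 members, edgeR called none between ages in any of the 9 comparisons of 2 ages within a tissue. All 7 were tested in heart and kidney and 6 in liver, where Npas2 missed the filter on low counts. The share of all genes called was 1.06% from 8 to 10 weeks, 0.0396% from 10 to 12 weeks and 4.56% from 8 to 12 weeks in heart. It was 0.929%, 0.482% and 0.0567% in kidney and 0.0204%, 0.0545% and 0.239% in liver. At an unadjusted p under 0.05, the members that passed numbered 4, 2 and 3 for heart, 3, 1 and 1 for kidney and 3, 2 and 1 for liver, where 15.8%, 11.7% and 23.4%, then 16.5%, 16.4% and 11.7%, then 14.3%, 14.1% and 15.1% of all genes did. DESeq2 called 2, 0 and 1 members for heart, 1, 1 and 0 for kidney and 1, 1 and 0 for liver, and limma-voom called 0 in each. The shares of all genes that DESeq2 called are not given here, so its counts do not set the members apart.

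Clock, the partner of BMAL1, was at 33.7 ± 4.6 CPM in heart at 8 weeks, 50.1 ± 10 CPM at 10 weeks and 47.0 ± 8.1 CPM at 12 weeks. In liver it was at 37.2 ± 4.0, 56.0 ± 15 and 38.8 ± 6.4 CPM. Its log2 fold change from 8 to 10 weeks was 0.57 ± 0.14 in heart (edgeR adjusted p = 0.0695), 0.53 ± 0.17 in liver (0.199) and 0.11 ± 0.08 in kidney (0.550). In kidney Clock was the steadiest of the activators, between 59.3 and 85.4 CPM in all 12 libraries. DESeq2 also called Clock in heart, with an adjusted p of 0.0124 from 8 to 10 weeks and 0.0362 from 8 to 12 weeks. The limma-voom adjusted p for these changes was 0.0915 and 0.0868. Without replicate 2 at 10 weeks the edgeR adjusted p of Clock in heart was 0.0122 from 8 to 10 weeks and 0.0497 from 8 to 12 weeks, and without replicate 4 at 12 weeks it was 0.0348 and 0.0182. In liver it was 0.0290 from 8 to 10 weeks without replicate 2 at 10 weeks. Leaving out other libraries gave up to 0.214 and 0.197 in heart and 0.372 in liver.

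Npas2, which can take the place of CLOCK beside BMAL1, was at 1.24 to 2.81 CPM in heart and 0.657 to 2.41 CPM in kidney. In liver it was counted in 0 to 11 read pairs per library, with 1, 1, 0 and 0 at 8 weeks, 10, 5, 11 and 3 at 10 weeks, and 7, 4, 5 and 6 at 12 weeks. Its log2 fold change from 8 to 10 weeks was 0.83 ± 0.27 in kidney and 0.16 ± 0.28 in heart, with edgeR adjusted p of 0.145 and 0.824.

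Cry1, the repressor of the activator pair, was named by the study among circadian regulators down-regulated in kidney at 12 weeks. The study used these samples, so the direction of Cry1 there is not independent evidence. In kidney it was at 7.27, 10.7, 15.1 and 15.8 CPM at 8 weeks, at 4.36, 12.4, 4.95 and 4.92 CPM at 10 weeks, and at 3.76, 4.09, 6.31 and 12.2 CPM at 12 weeks. At both later ages 3 of 4 libraries lay below every 8-week library, and 1 library lay among them. The kidney log2 fold change from 8 to 12 weeks was -0.88 ± 0.41, with an edgeR adjusted p of 0.430. The change the study named thus had the same direction here but was not called. From 8 to 12 weeks in kidney, edgeR called 10 of 17649 genes, or 0.0567%. With so few calls over all genes, the missing call says little about Cry1 itself. In heart Cry1 was at 14.1 ± 1.9, 11.1 ± 2.1 and 11.1 ± 2.0 CPM from the youngest to the oldest group, and its log2 fold change from 8 to 12 weeks was -0.38 ± 0.15 (adjusted p = 0.142), with 0.0369 without replicate 4 at 12 weeks and up to 0.304 without another library. In liver it was at 12.0 ± 4.0, 10.6 ± 1.6 and 10.5 ± 4.4 CPM, with a log2 fold change of -0.17 ± 0.27 from 8 to 12 weeks (adjusted p = 0.813).

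Nr1d1, the repressor of Bmal1, was lowest at 8 weeks on average in each tissue. In heart it was at 86.0, 51.4, 31.1 and 38.2 CPM at 8 weeks, at 93.3, 65.1, 133.0 and 106.0 CPM at 10 weeks, and at 94.7, 105.4, 92.9 and 56.1 CPM at 12 weeks. In kidney it was at 56.1, 46.6, 31.5 and 33.6 CPM at 8 weeks, at 62.1, 35.8, 82.5 and 62.5 CPM at 10 weeks, and at 89.2, 76.3, 72.9 and 38.2 CPM at 12 weeks. In liver it was at 56.4, 37.1, 24.6 and 18.9 CPM at 8 weeks, at 108.3, 43.2, 122.0 and 88.5 CPM at 10 weeks, and at 128.3, 86.6, 77.2 and 18.6 CPM at 12 weeks. The age groups overlapped in each tissue.

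The log2 fold change of Nr1d1 from 8 to 12 weeks came to 0.73 ± 0.25 for heart, 0.75 ± 0.26 for kidney and 1.22 ± 0.48 for liver, with edgeR adjusted p of 0.0987, 0.312 and 0.262. From 8 to 10 weeks it was 0.94 ± 0.25, 0.52 ± 0.26 and 1.35 ± 0.48, with adjusted p of 0.0872, 0.330 and 0.229. In heart the 12-week call passed without replicate 4 at 12 weeks (0.0371) or without replicate 1 at 8 weeks (0.0128). From 8 to 10 weeks it passed without replicate 1 at 8 weeks (0.00932) or replicate 2 at 10 weeks (0.0263). Leaving out other libraries gave up to 0.234 from 8 to 12 weeks and 0.249 from 8 to 10 weeks.

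Nr1d2, the second REV-ERB receptor, stayed within 1.53-fold among the heart libraries, 1.36-fold among the kidney libraries and 1.66-fold among the liver libraries. Its log2 fold change between ages lay between -0.05 and 0.10 over the 9 comparisons, with SE of 0.09 to 0.14 and edgeR adjusted p of 0.623 or more. Nfil3, the D-box repressor, had log2 fold changes of -0.68 ± 0.23 in heart and -0.60 ± 0.30 in liver from 10 to 12 weeks, with adjusted p of 0.274 and 0.389. In kidney Nfil3 ranged from 0.698 to 5.17 CPM, and libraries of 1 age differed by more than the ages did.

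**Figure D2:**
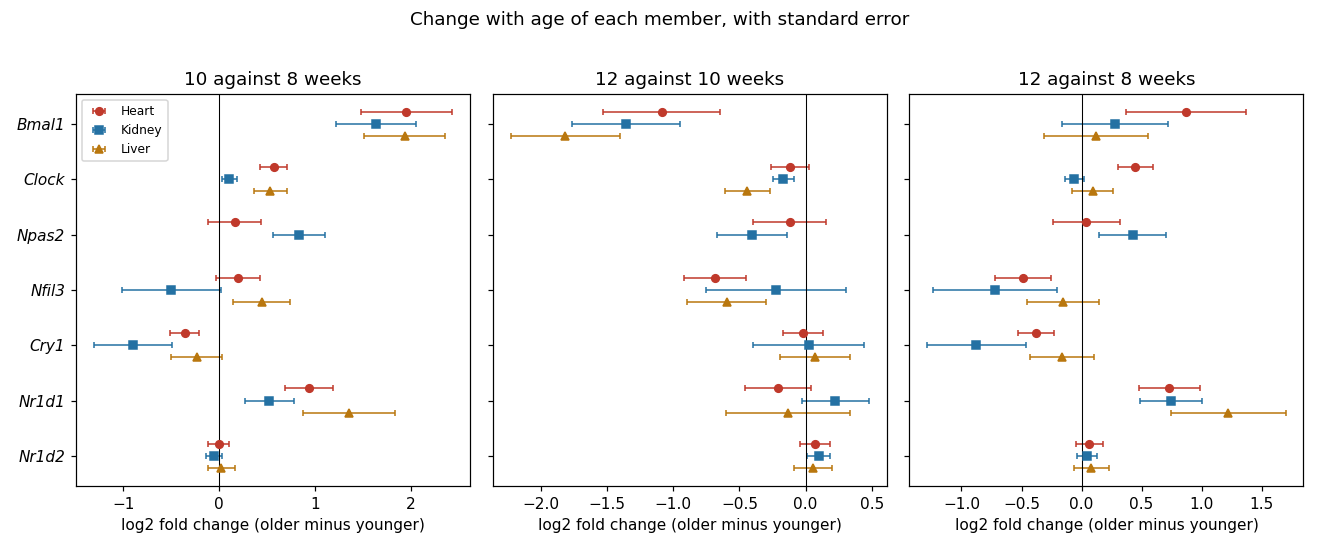
Log2 fold change (x axis, older minus younger) of each member (y axis) for 3 comparisons of ages in heart, kidney and liver, with bars of 1 SE. Bmal1 lies at 1.63 to 1.95 from 8 to 10 weeks and at -1.82 to -1.09 from 10 to 12 weeks, Nr1d2 lies near 0, and no value passed an adjusted p of 0.05 in edgeR.

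Of 20 other clock genes, 20 were tested in heart and kidney and 19 in liver, and edgeR called none between ages. Their median log2 fold change from 8 to 10 weeks came to -0.22 for heart, -0.20 for kidney and -0.27 for liver, where that of the members was 0.20, 0.11 and 0.49. The median of all genes was within 0.01 of 0 in each comparison.

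Changes with age were compared between tissues in 1 fit over all libraries. Of 63 such differences of members, edgeR called 2, both of Npas2 between heart and liver. They were -3.28 from 8 to 10 weeks (adjusted p = 0.0475) and -3.03 from 8 to 12 weeks (0.0427) on the log2 scale, where 1.09% and 4.16% of all genes were called. Both rest on the liver counts of 0 or 1 at 8 weeks, so their size depends on the prior count of the fit and is no bound. Npas2 missed the count filter in liver and entered this fit through heart and kidney, so these calls do not show that its change with age differed. They were lost in 9 and 7 of 12 fits without 1 number, and neither passed when the counts of both strands were summed (0.0651 and 0.0589).

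Between tissues, most genes differed, since edgeR called 86.1% of 19716 genes between heart and kidney, 84.2% between heart and liver and 83.1% between kidney and liver. Of the 7 members, 6, 3 and 6 were called, near the share of all genes for heart against kidney and for kidney against liver, and below it for heart against liver. Npas2 showed the largest difference, with log2 fold changes of 3.81 ± 0.27 for heart against liver and 2.81 ± 0.28 for kidney against liver. It missed the count filter in liver and entered this fit through heart and kidney, so its 2 calls against liver are no support. Their size depends on the prior count and is no bound. As counts, Npas2 had 30 to 79 read pairs per library in heart, 14 to 68 in kidney and 0 to 11 in liver. Nfil3 was lower in heart and in kidney than in liver, with log2 fold changes of -1.58 ± 0.23 and -2.55 ± 0.23.

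Cry1 was higher in heart than in kidney, with a log2 fold change of 1.08 ± 0.19, and lower in kidney than in liver, at -1.22 ± 0.19. Nr1d1 gave 0.98 ± 0.22 and -0.94 ± 0.22 for the same 2 comparisons, Bmal1 0.70 ± 0.29 and -0.76 ± 0.29, and Nr1d2 0.42 ± 0.07 and -0.40 ± 0.07. The Bmal1 call for heart against kidney was lost without replicate 1 or 2 at 8 weeks or replicate 1 or 3 at 12 weeks (adjusted p up to 0.0708). These values depend on the scaling of the libraries. The median difference of all genes was -0.15 for heart against kidney and 0.16 for kidney against liver with TMM factors, and -0.67 and 0.93 without factors. Relative to that median, Bmal1 was at 0.85 with factors and 0.83 without for heart against kidney, Nr1d2 at 0.57 and 0.57, and Nr1d1 at 1.13 and 1.12. Without factors Nr1d2 was -0.11 for heart against kidney and 0.39 for kidney against liver, so its direction turned. Bmal1 at 0.16 and 0.02 and Nr1d1 at 0.45 (adjusted p = 0.0647) and -0.15 (0.537) were then not called in either comparison.

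Libraries of the same number were then compared across tissues, within age. Nr1d1, Bmal1 and Cry1 differed between numbers in a fit over the 3 tissues, and the other 4 members did not pass. In an edgeR F test with 9 degrees of freedom, in which each number has 1 library per tissue, F was 13.9 for Nr1d1 (adjusted p = 6.73e-05), 8.07 for Bmal1 (0.00343) and 6.22 for Cry1 (0.0158). Nr1d2 gave 0.149, Clock 0.208, Npas2 0.238 and Nfil3 0.407 as adjusted p. Of all 19716 genes, 244 were called, or 1.24%.

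On simulated counts, this F test over all genes called more unchanged genes than a threshold of 0.05 allows, most of them nearly absent from 1 of the tissues. Restricted to genes kept in every tissue it called close to that share, so the restricted values are given too. Over 12537 such genes, 115 were called, or 0.917%, and the adjusted p was 0.000147 for Nr1d1, 0.00476 for Bmal1 and 0.0279 for Cry1. In the fit over all genes, the only one repeated without single numbers, the call of Bmal1 was lost without replicate 1 at 10 weeks (0.149) or without replicate 2 at 10 weeks (0.172). The call of Cry1 was lost without replicate 4 at 12 weeks (0.216) or replicate 1 at 8 weeks (0.0556), and Nr1d1 passed without any 1 of the 12 numbers. These values carry the excess of false calls of that fit. In fits over heart and liver only, and over kidney and liver only, Nr1d1 was called and Bmal1 and Cry1 were not.

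Of the 20 other clock genes, 8 passed the same F test over all genes, among them Per1, Per2, Dbp and Ciart. The 5 with the smallest adjusted p over genes kept in every tissue were Per1 (0.000300), Per2 and Wee1 (0.00161 each), Ciart (0.00254) and Noct (0.0122).

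Nr1d1 deviated from its age mean in the same direction in all 3 tissues at 12 of 12 numbers, where Clock did at 8, Cry1 at 7 and Bmal1, Nfil3 and Nr1d2 at 6. The same share over all genes was not computed. Its Pearson's r of log2 CPM less age means was 0.92 between heart and kidney, 0.84 between heart and liver and 0.95 between kidney and liver, and Spearman's rho was 0.94, 0.85 and 0.92. The exact permutation p, from 13824 reorderings of numbers within age, was 0.000362, 0.00210 and 0.000506 for r and 0.000145, 0.00297 and 0.000506 for rho. Adjusted over all genes these came to 0.349, 0.459 and 0.254. Without the 2 numbers farthest from the median r was 0.98, 0.91 and 0.90. Replicate 4 at 12 weeks lay at -0.58, -0.75 and -1.75 on the log2 scale in heart, kidney and liver, lowest in kidney and liver, and replicate 2 at 10 weeks lay at -0.54, -0.67 and -0.90. In heart replicate 3 at 8 weeks was the lowest, at -0.61.

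Cry1 showed an r of 0.91 between heart and kidney (rho 0.91, exact permutation p of 0.00109 for r and 0.000651 for rho, adjusted p 0.384 for r), and of 0.83 without the 2 farthest numbers. Its r was 0.58 between heart and liver and 0.60 between kidney and liver, and the former was -0.01 without the 2 farthest numbers and so rests on them. Bmal1 gave r of 0.62, 0.65 and 0.69, with rho of 0.30, 0.36 and 0.70. The exact permutation p was 0.140, 0.229 and 0.145 for r and 0.441, 0.305 and 0.0261 for rho. Without the 2 farthest numbers its r was -0.05 between heart and kidney and 0.02 between heart and liver, so these relations rest on replicates 1 and 2 at 10 weeks. Between kidney and liver it was 0.68.

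The r of Clock was 0.69, 0.35 and 0.62, that of Nr1d2 0.67, 0.57 and 0.39, and that of Nfil3 0.19, 0.19 and 0.56 for heart and kidney, heart and liver, and kidney and liver. Npas2, kept in heart and kidney, gave 0.67. All 19 values of the members were above 0, with a median of 0.67, 0.57 and 0.61 where the median over all genes was 0.08, 0.01 and 0.15 and 58.9%, 51.0% and 64.9% of all genes were above 0. The other clock genes had a median of 0.67, 0.43 and 0.51, with 17 of 20, 17 of 19 and 19 of 19 above 0. By the exact permutation test 4 of 7, 1 of 6 and 1 of 6 members had an unadjusted p under 0.05, against 7.01%, 6.71% and 8.39% of all genes. No gene of the 13928, 12691 and 13660 tested passed after adjustment, and the smallest p that the permutations can give is 7.23e-05.

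**Figure D3:**
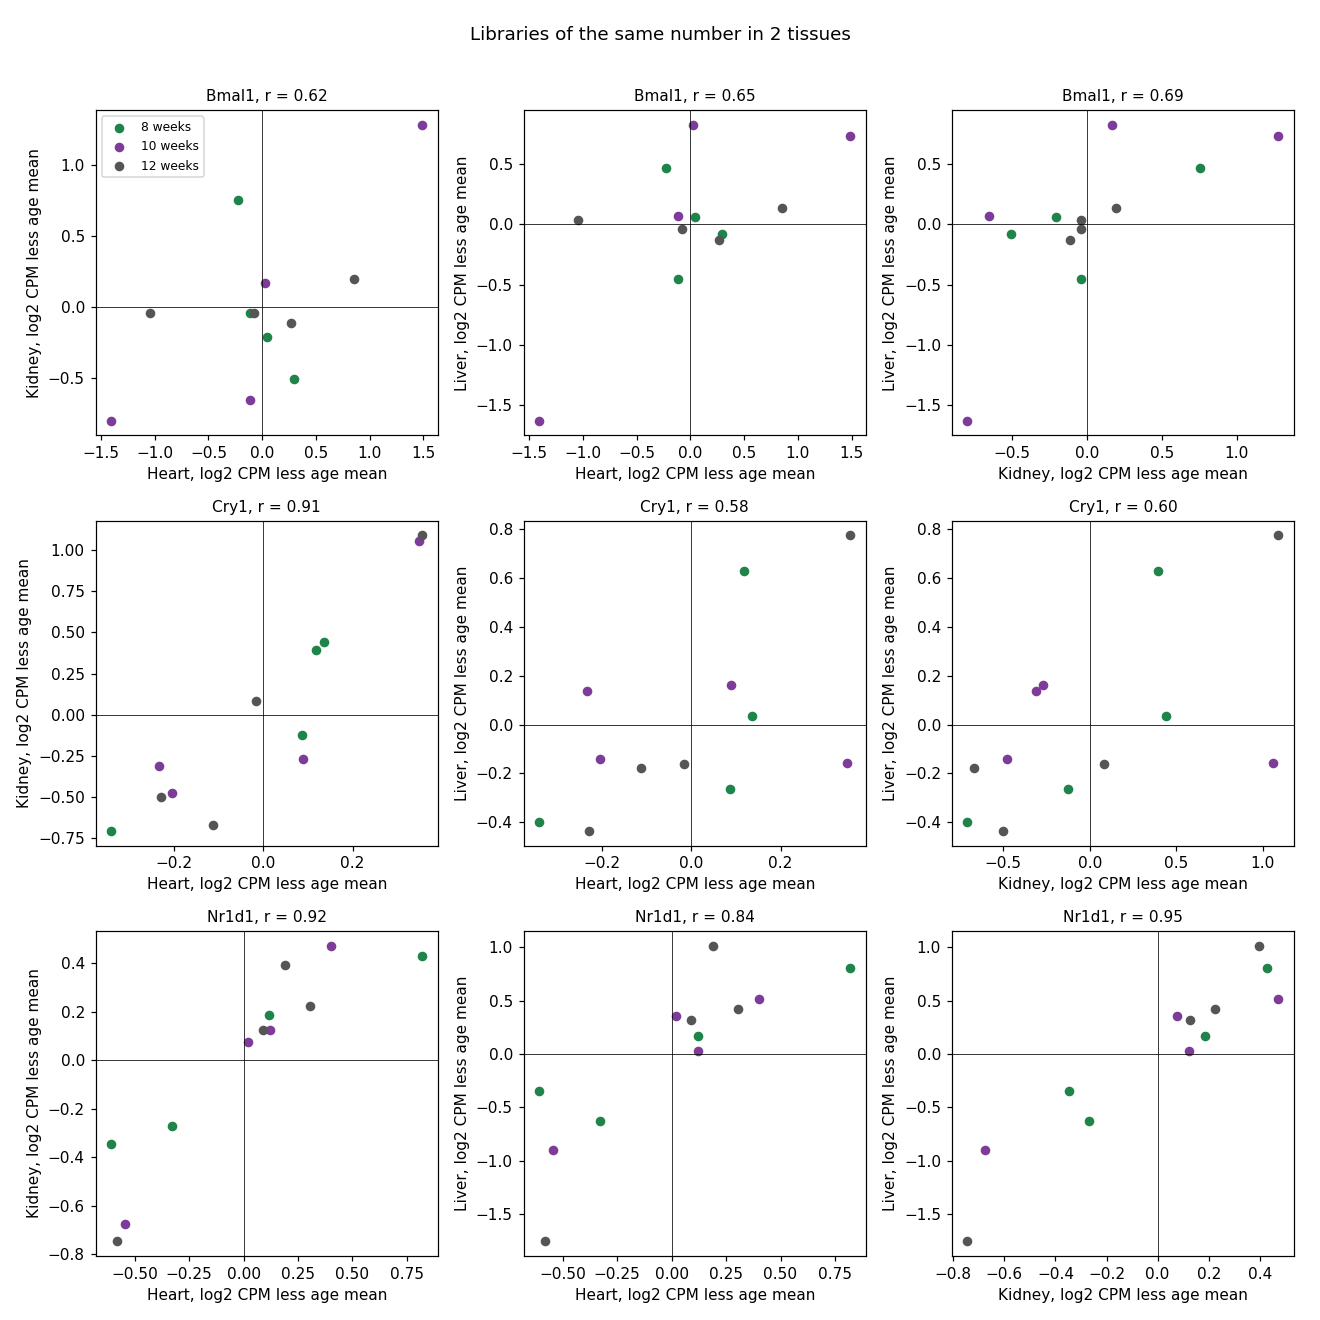
Deviation from the age mean in log2 CPM of Bmal1, Cry1 and Nr1d1 in libraries of the same number in 2 tissues (x and y axes), each point 1 of 12 numbers and colours the 3 ages. Nr1d1 points lie at the lower left and upper right in all panels (r of 0.84 to 0.95), while the Bmal1 panels with heart hold 2 points far from the rest.

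The members were also set against Bmal1 within each tissue, as log2 CPM less age means over 12 libraries. The points share the library and its depth. Clock had an r with Bmal1 of 0.75 in heart, 0.85 in kidney and 0.78 in liver, with rho of 0.70, 0.82 and 0.74 and exact permutation p of 0.0201, 0.0162 and 0.0661 for r and 0.0312, 0.0133 and 0.0205 for rho. Its mean r of 0.79 was the highest of 12536 genes kept in all tissues. Without the 2 farthest numbers r was 0.69, 0.61 and 0.19, so the liver value rests on them.

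Cry1 had an r with Bmal1 of -0.74 in heart, -0.21 in kidney and 0.24 in liver. Nr1d2 was at -0.39, -0.80 and -0.25, Nr1d1 at 0.54, 0.08 and 0.41, and Nfil3 at 0.35, 0.18 and -0.01. Npas2 was at 0.40 in heart and 0.58 in kidney. At an unadjusted exact permutation p under 0.05 there were 3 of 6 members in heart, 2 of 6 in kidney and 0 of 5 in liver, against 8.98%, 4.35% and 7.39% of all genes, and no gene passed after adjustment in any tissue.

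After Clock, the genes with the highest mean r were Leo1 (0.73), Ncbp2 (0.69), A730017L22Rik (0.68) and Znhit6 (0.66). Those with the lowest were Fam76a (-0.81), Igf1r (-0.79), Per3 (-0.74), Ciart (-0.73) and Sprtn (-0.73). Without the 2 farthest numbers each listed gene kept its sign, and the ranking was not repeated. In heart, kidney and liver r was then -0.81, -0.38 and -0.03 for Fam76a and -0.51, -0.35 and -0.66 for Ciart. It was -0.78, -0.91 and -0.55 for Per3 and 0.26, 0.46 and 0.37 for A730017L22Rik. Per3 is a period gene and Ciart a repressor of the activator pair, and both belong to the list of other clock genes.

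**Figure D4:**
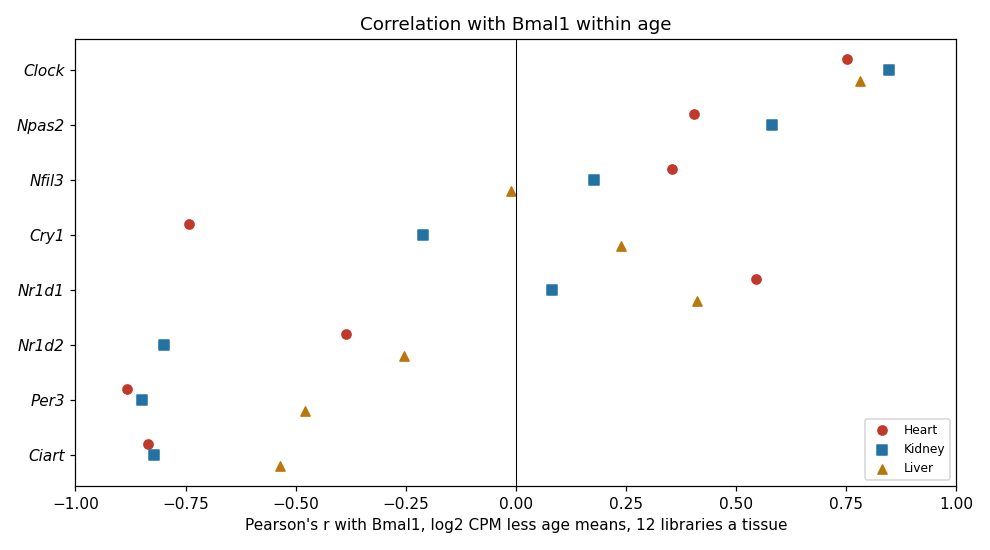
Pearson's r with Bmal1 (x axis) of the other members and of Per3 and Ciart (y axis) in heart, kidney and liver, from log2 CPM less age means over 12 libraries a tissue. Clock lies at 0.75 to 0.85 in the 3 tissues and Per3 and Ciart lie below 0 in each.

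The members differed in how much they varied among libraries of 1 age. The biological coefficient of variation that edgeR fitted to Bmal1 came to 42.7% for heart, 38.6% for kidney and 39.2% for liver, above 98.96%, 97.7% and 92.2% of the genes kept. Nr1d1 was at 24.9%, 25.1% and 45.5%, above 88.6%, 88.5% and 95.3% of genes. Among genes of a like level Nr1d1 stood above 99.4%, 98.6% and 99.3%.

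Cry1 was at 39.9% in kidney, against 14.6% in heart and 26.5% in liver, and Nfil3 was at 50.2% in kidney, against 21.0% and 29.4%. Clock at 8.52% to 17.9% and Nr1d2 at 9.16% to 15.8% lay nearer to the common value of 11.8% in heart, 11.3% in kidney and 20.6% in liver. Among genes of a like level, though, Clock stood above 96.2%, 78.4% and 84.3% in heart, kidney and liver. Nr1d2 stood above 85.3%, 77.8% and 77.4% of such genes.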

How the data were processed

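The authors' STAR gene counts (GRCm39, Ensembl annotation, version 2.7.11b per the labels, after FastQC 0.11.9 and cutadapt 4.2) were used as deposited, taking the unstranded column of read pairs per gene. Rows of unmapped, multimapping, ambiguous and featureless pairs were left out; 68.6% to 78.8% of pairs were counted. CPM is a count scaled to 1000000 counted pairs per library. Gene names were matched for 78168 of 78239 IDs. The study's methods call the 4 libraries of each group biological replicates. The members and lists were chosen with earlier results of these data known.

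Genes were kept with counts above 0 in 2 libraries and a mean of at least 10 in 1 age. edgeR 4.0.16 (TMM factors, quasi-likelihood F tests, Benjamini-Hochberg adjustment, threshold 0.05) was fitted on all genes, per tissue for ages and over 36 libraries for tissues and library numbers. Correlations used log2 CPM (prior count 2) less age means, with 2-sided exact permutation within age in Python. DESeq2 1.42.0 and limma 3.58.1 (voom) were alternatives. All 7 members, 20 other clock genes, and the 5 genes most and 5 least like Bmal1 were named by rule. Scripts were tested on simulated data. The number test over all genes made too many false calls there, and limma-voom did also, so the restricted fit is given beside it.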

Additional observations from a re-analysis of the deposited data

Results flagged for a closer look

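Of 63 groups of 4 libraries (7 members in 9 groups), 6 held 1 library whose CPM lay far from the other 3 for the range of the group. The cutoff is one that about 1 in 20 groups of independent, normally distributed values would pass. The groups here share libraries, and the number to expect among them was not measured. In kidney, Bmal1 at 12 weeks was 1.93 CPM in replicate 1 against 1.52 to 1.56 CPM in the others, and Cry1 at 10 weeks was 12.4 CPM in replicate 2 against 4.36 to 4.95 CPM. Nr1d2 in kidney at 12 weeks was 178.1 CPM in replicate 4 against 205.4 to 210.9 CPM. Replicate 4 at 12 weeks also stood apart for Clock in heart, at 34.8 CPM against 50.5 to 51.6 CPM, and for Cry1 in liver, at 16.99 CPM against 7.50 to 8.83 CPM. Nr1d2 in liver at 10 weeks was 138.2 CPM in replicate 1 against 156.5 to 158.5 CPM.

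The test of a difference between heart and liver in the change with age called Npas2, with -3.28 on the log2 scale from 8 to 10 weeks and -3.03 from 8 to 12 weeks. The liver counts behind both were 0 to 11, under the count filter of the liver fit, so neither value shows a difference between the tissues.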

How the results depend on the processing

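Over settings that kept every library, 140 summary values (counts called, levels and spreads) stayed close to the reported value and 22 moved. Counts of members called between ages moved with 3 settings. DESeq2 called 2 members from 8 to 10 weeks and 1 from 8 to 12 weeks in heart, 1 from 8 to 10 and 1 from 10 to 12 weeks in kidney, and the same in liver. With no count filter the calls from 8 to 10, 10 to 12 and 8 to 12 weeks were 3, 2 and 4 for heart, 3, 1 and 2 for kidney and 4, 1 and 1 for liver; the cause was not tested. Leaving out 1 library gave 0 to 3 calls in heart from 8 to 10 and from 8 to 12 weeks, 0 to 1 in kidney from 8 to 10 weeks, 0 to 2 in liver from 8 to 10 weeks and 0 to 1 from 10 to 12 weeks. The shares of all genes called under these settings, and with the replicate block below, are not given here. These counts therefore do not set the members apart.

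Replicate numbers did not pair the ages. Same-numbered libraries of 2 tissues correlated above 0.1 over genes in 7, 5 and 8 of 12 numbers (heart and kidney, heart and liver, kidney and liver). They correlated best with their own number in 10, 7 and 12. Same-numbered libraries were matched in the number test and in the correlations between tissues. The main fits between tissues did not pair them, because the labels do not say that they came from the same mouse. With the replicate block, 3 members were called in heart from 8 to 10 weeks, and it changed no other count by over 1.5 times. With library number as a block, Clock was also called between kidney and liver (-0.15).

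Between heart and kidney 3 members were called without factors. Without factors Bmal1 and Cry1 turned direction for heart against liver (0.19 and 0.13), as did Nr1d2 for heart against kidney (-0.11) and Bmal1, Clock and Nr1d2 for kidney against liver (0.0245, 0.63 and 0.39). Leaving out 1 number gave -0.25 to 0.0615 for Bmal1, -0.0154 to 0.13 for Nr1d1 and -0.00655 to 0.0599 for Nr1d2 in heart against liver. The age differences between heart and liver fell from 2 to 1 without factors, 0 over genes kept in every tissue, 0 with summed strands, and 0 to 2 without 1 number.

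For library number, fits over 2 tissues held fewer libraries than the fit over all 3. Over heart and liver only, and over kidney and liver only, 1 member was called, Nr1d1 in each. The fit over heart and kidney only, of the same size, called Bmal1 and Cry1 too. Over 8 settings, these fits included, Nr1d1 was called in 8 and Bmal1 and Cry1 in 6 each. Without the 2 farthest numbers, r was -0.0508 for Bmal1 (heart and kidney) and -0.0105 for Cry1 (heart and liver), and r with Bmal1 was 0.39 for Nr1d2 in heart and -0.59, -0.42 and 0.63 for Nfil3 in heart, kidney and liver. Nfil3 with Bmal1 gave a rho of -0.0420 in heart and 0.16 in liver, and r of 0.0305 without factors and 0.0250 with summed strands in liver. Leaving out 1 number gave r of -0.23 to 0.65 for Clock and -0.0395 to 0.58 for Nfil3 (heart and liver), and r with Bmal1 of -0.24 to 0.75 for Nfil3 in heart, -0.38 to 0.10 for Cry1 and -0.27 to 0.25 for Nr1d1 in kidney, and -0.29 to 0.52 for Nfil3 in liver. Bmal1 and Npas2 in liver rest on few read pairs.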
